A study of Mus musculus with 12 samples.

Results

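Iron handling was followed in 10 genes of the mouse liver: the hepcidin genes Hamp and Hamp2, the iron exporter Slc40a1, the transferrin genes Trf, Tfrc and Tfr2, the ferritin subunits Fth1 and Ftl1, and the BMP ligand Bmp6 with the BMP target Id1. The genes were taken by symbol from the deposited count tables, where each of the 10 matched 1 of the 54532 rows. All 10 had enough counts to be tested in every comparison. The livers came from male PPARγ flox/flox mice injected at 8 weeks of age with AAV8-TBG-Cre (PPARγ-KO) or with AAV8-TBG-eGFP (wild-type). Both genotypes therefore carried the floxed alleles and an AAV8 vector, and both were then kept for 2 or 5 months on a fast-food diet (FFD), with 42% of calories from fat, 0.2% cholesterol and 34% sucrose, and sugar in the drinking water. No chow-fed group was analysed here. The TBG promoter is active in hepatocytes, so Cre was not aimed at the other cells of the liver. The 4 groups held 3 libraries apiece, and the 12 libraries had 16367775 to 27452284 counts.

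Hepcidin is a peptide hormone that hepatocytes secrete when iron is plentiful or the liver is inflamed. It binds ferroportin, the product of Slc40a1 and the only known exporter of cellular iron, and causes its breakdown, so that less iron enters the blood from macrophages, hepatocytes and the gut. Sinusoidal endothelial cells make Bmp6 when iron is high, and BMP receptors on hepatocytes then raise Hamp together with Id1, while interleukin 6 raises Hamp through STAT3. Transferrin carries iron in plasma, the receptors TfR1 (Tfrc) and TfR2 (Tfr2) bind it, and ferritin stores iron inside the cell. The mouse has a second hepcidin gene, Hamp2, close to Hamp, whose peptide is not thought to regulate iron.

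The sequences shown first belong to the iron genes whose mRNA is known to bind the iron regulatory proteins. These proteins bind a hairpin, the iron-responsive element, when iron in the cell is low. In the 5′ UTR the bound hairpin blocks translation, and in the 3′ UTR of Tfrc it protects the mRNA from decay. Elements were searched in GENCODE M21 transcripts (GRCm38) as C, 5 bases, CAGTGN and 5 bases able to pair with the first 5, and the C and the loop CAGTGN are in capitals.
Fth1, 5′ UTR (chr19:9982732-9982760): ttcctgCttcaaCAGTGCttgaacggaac
Ftl1, 5′ UTR (chr7:45459779-45459807): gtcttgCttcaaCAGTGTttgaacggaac
Slc40a1, 5′ UTR (chr1:45925465-45925493): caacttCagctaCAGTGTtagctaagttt
Tfrc, 3′ UTR (chr16:32631219-32631247): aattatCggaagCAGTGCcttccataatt
Tfrc, 3′ UTR (chr16:32631598-32631626): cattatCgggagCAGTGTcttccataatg
Tfrc, 3′ UTR (chr16:32631663-32631691): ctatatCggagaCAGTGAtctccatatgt
Tfrc, 3′ UTR (chr16:32631710-32631738): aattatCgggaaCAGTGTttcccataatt
Fth1 and Tfrc lie on the plus strand, and Ftl1 and Slc40a1 on the minus strand. Such an element was found in 4 of the 10 iron genes, against 160 of 21877 protein-coding genes (0.731%). These 4 were already known to bind the iron regulatory proteins, so this excess is a description and not a test. The 4 matches in Tfrc all lay in its 3′ UTR, and the matches in Fth1, Ftl1 and Slc40a1 all lay in the 5′ UTR.

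The targeted gene was read before any direction was drawn. Pparg, the nuclear receptor that Cre was meant to remove from hepatocytes, had 711, 804 and 742 counts in wild-type at 2 months, where PPARγ-KO had 974, 1166 and 1398. The 5-month wild-type libraries had 623, 710 and 710 counts and their PPARγ-KO counterparts 1834, 1812 and 1189. It was thus higher and not lower in the PPARγ-KO livers as labelled, at both times (log2 fold changes 0.52 and 1.15, edgeR adjusted p = 0.0309 and 2.57e-06). A gene count does not separate the floxed exons from the others, so loss of those exons could not be read from it. The paper reports from western blots of liver lysates that the protein was lost in PPARγ-KO at both times. Below, PPARγ-KO means the libraries that carry this label. Between replicates, chi-square per gene ran from 2.35 to 28.7, and the most distant library was wild-type replicate 1 at 2 months. The labels do not say that the libraries of a group are from separate animals, so the tests measure the spread between these libraries. Whether the 2 times were prepared and sequenced together is not stated, and time and batch cannot be told apart.

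Levels per length, in normalized CPM (counts scaled to a common library size by edgeR's TMM method) divided by gene length in kb, spread over 3 orders of magnitude in wild-type liver at 2 months. Ferritin stood highest, at 1990 ± 169 CPM per kb (SD, n = 3) for Fth1 and 1120 ± 156 for Ftl1. Hamp (396 ± 270), Trf (237 ± 7.39) and Tfr2 (81.3 ± 9.19) followed, and the Hamp and Trf libraries overlapped. Slc40a1 (20.6 ± 1.60), Hamp2 (9.29 ± 1.60), Tfrc (8.33 ± 2.90), Id1 (5.43 ± 1.92) and Bmp6 (1.68 ± 0.131) were lower, and the Tfrc libraries overlapped those of Hamp2 and Id1, while every Hamp2 library lay above every Id1 library. Hamp was also the most variable of the 10 genes in this group: its highest library held 4.09 times the CPM of its lowest.

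At 5 months Hamp was lower in PPARγ-KO, as labelled, without passing the test, and overlapped wild-type at 2 months. At 2 months wild-type had 285, 69.7 and 132 normalized CPM and PPARγ-KO 138, 161 and 113. The PPARγ-KO libraries all fell inside the wild-type range, and the log2 fold change was -0.24 (SE 0.575, unadjusted 95% interval -1.79 to 1.3, edgeR adjusted p = 0.873). With wild-type replicate 1 left out it was 0.44. At 5 months wild-type had 271, 209 and 208 CPM and PPARγ-KO 5.10, 54.0 and 34.5. Every PPARγ-KO library was below every wild-type library, and replicate 1, with 108 counts, lay far below the other PPARγ-KO libraries. The mean was 7.33-fold lower (log2 -2.87, SE 0.841, unadjusted 95% interval -5.17 to -0.58), at an unadjusted p of 0.0251 and an adjusted p of 0.1, above the 0.05 threshold in edgeR. Without PPARγ-KO replicate 1 the fall was smaller and passed the test (log2 -2.35, adjusted p = 0.00606), and without PPARγ-KO replicate 2 it was larger and did not (log2 -3.57, adjusted p = 0.129). With all libraries it passed in DESeq2 (adjusted p = 0.00725) and in one edgeR fit of all 12 libraries (adjusted p = 0.0434).

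At 2 months Hamp2 rose in PPARγ-KO. Wild-type had 6.33, 5.46 and 4.46 normalized CPM and PPARγ-KO 15.0, 27.4 and 26.6, and the lowest PPARγ-KO library stood above the highest wild-type library. The rise was 4.25-fold (log2 2.09, SE 0.256, edgeR adjusted p = 0.00991). The call was lost in the fit of all 12 libraries (adjusted p = 0.0868) and without wild-type replicate 2 (adjusted p = 0.0660), with the same fold change. At 5 months wild-type had 1.84, 3.85 and 2.97 CPM and PPARγ-KO 2.55, 20.3 and 11.2. Here PPARγ-KO replicate 1 lay within the wild-type range and the other 2 above it, and the 3.94-fold difference in the means did not pass (log2 1.98, SE 0.894, adjusted p = 0.237). Without that library the difference was 2.47 on the log2 scale and passed (adjusted p = 0.00390), and without PPARγ-KO replicate 2 it was 1.23 (adjusted p = 0.402).

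PPARγ-KO replicate 1 at 5 months was the lowest of its group in both hepcidin genes, and in that group the balance between the genes varied less than either level. Hamp2 made up 2.17%, 7.26% and 3.28% of the summed Hamp and Hamp2 counts in wild-type at 2 months, and 9.82%, 14.5% and 19.1% in PPARγ-KO. At 5 months the shares were 0.673%, 1.81% and 1.41% in wild-type and 33.3%, 27.4% and 24.6% in PPARγ-KO. The groups did not overlap at either time. The mean share was higher by 10.3 percentage points at 2 months and by 27.1 at 5 months, and the exact two-sided permutation test gave p = 0.1 at each, the smallest value that 3 against 3 libraries allow. These are shares of counts, not of molecules, since the annotated lengths of the genes differ.

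**Figure D1:**
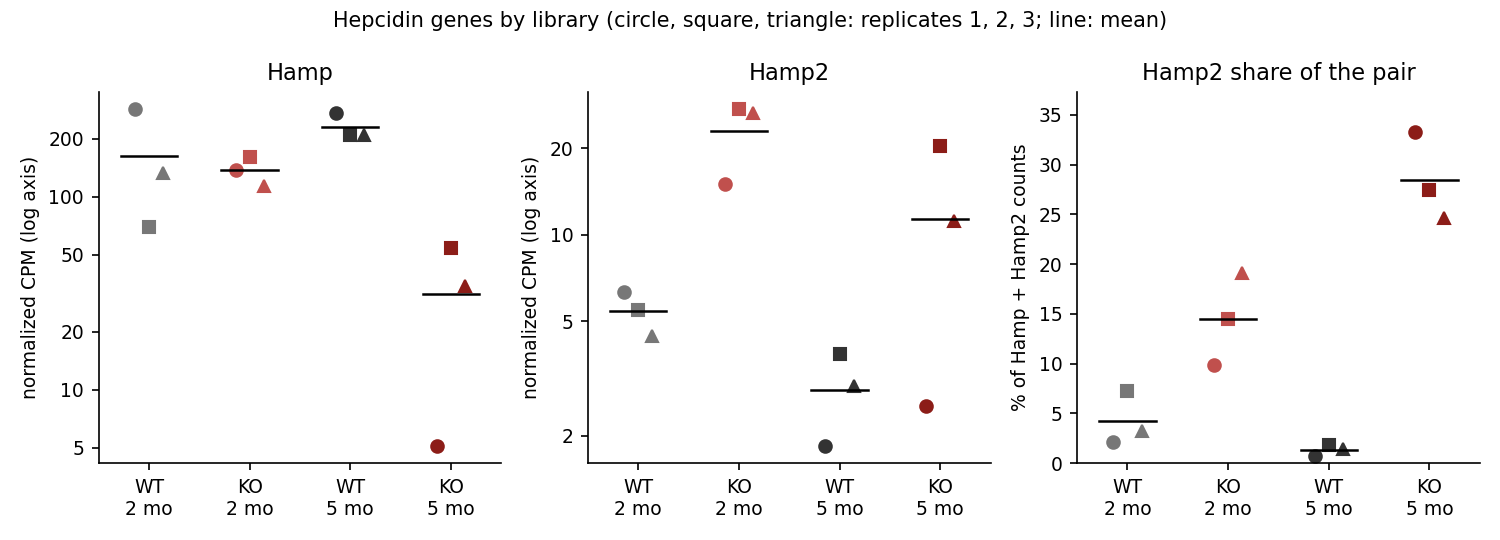
Normalized CPM of Hamp and Hamp2 (log axes) and the Hamp2 share of their summed counts (percent, axis from 0) in the 12 libraries, by genotype label and months of FFD; symbols are replicates and lines are group means. The PPARγ-KO libraries at 5 months sit at 5.10 to 54.0 CPM of Hamp, below the 208 to 271 of wild-type, and at Hamp2 shares of 24.6% to 33.3%.

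Hamp (chr7:30942368-30944032) and Hamp2 (chr7:30922372-30924681, both GRCm38, minus strand) are near copies, so their reads can be assigned to the wrong gene. The Hamp and Hamp2 transcripts of GENCODE M21 matched at 92.4% of aligned bases and their coding sequences at 93.6%. Of all 50-base stretches of the Hamp transcript 16.6% occurred unaltered in a Hamp2 transcript, and 3.87% of the 75-base stretches, but none of those of 100 or 150 bases. How the counting treated reads that fit both genes is not stated. The summed counts of the pair, which such an error leaves in place, gave log2 fold changes of -0.07 (SE 0.550, edgeR adjusted p = 0.966) at 2 months and -2.44 (SE 0.830, adjusted p = 0.139) at 5 months.

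Tfrc, which encodes transferrin receptor 1, the main route of transferrin iron into cells, rose in PPARγ-KO at 5 months and overlapped wild-type at 2 months. At 2 months wild-type had 31.4, 57.2 and 65.8 normalized CPM and PPARγ-KO 35.7, 46.5 and 29.2, which overlapped (log2 -0.48, SE 0.333, edgeR adjusted p = 0.525). At 5 months wild-type had 29.4, 28.8 and 33.9 CPM and PPARγ-KO 102, 77.4 and 82.1. All PPARγ-KO libraries at 5 months lay above all other libraries of the series, and the rise over wild-type was 2.86-fold (log2 1.51, SE 0.108, unadjusted 95% interval 1.28 to 1.75, adjusted p = 8.12e-06). This call held in each of the 15 alternatives run, which left the log2 fold change at 1.39 to 1.60. The genotype difference was larger at 5 than at 2 months by 1.98 on the log2 scale (SE 0.385, adjusted p = 0.0453). The call of this difference between the times was lost when any of 10 of the 12 libraries was left out. It was also lost with library size alone for scaling and with the replicate number as a block (adjusted p = 0.122).

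Erythroid cells carry much TfR1, so their 7 markers were summed in each library. The sums were 350, 384 and 389 CPM in wild-type at 5 months and 603, 661 and 360 in PPARγ-KO. Replicates 1 and 2 of PPARγ-KO lay above the wild-type range, with Tfrc at 102 and 77.4 CPM, and replicate 3 lay within it, with Tfrc at 82.1 CPM. All 6 erythroid markers tested at 5 months had higher means in PPARγ-KO. Of them 1 was called, near the share of 18.4% over all genes. It was Alas2, the erythroid enzyme that starts heme synthesis (log2 0.52, edgeR adjusted p = 0.00104). At 2 months, when 3.56% of all genes were called, Alas2 was called as well (log2 0.71, adjusted p = 0.00763). The other 4 markers tested at 2 months had lower means in PPARγ-KO. The part of erythroid cells in the rise of Tfrc was not tested.

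Slc40a1, the gene of ferroportin, fell in PPARγ-KO at 5 months and overlapped wild-type at 2 months. At 2 months wild-type had 201, 172 and 184 normalized CPM and PPARγ-KO 189, 164 and 206 (log2 0.01, unadjusted 95% interval -0.21 to 0.22, edgeR adjusted p = 0.983). At 5 months wild-type had 211, 212 and 221 CPM and PPARγ-KO 104, 159 and 137. The groups were apart, and the level was 1.60-fold lower (log2 -0.68, SE 0.14, adjusted p = 0.0131). The call was lost without wild-type replicate 1, 2 or 3 at 5 months (adjusted p = 0.103, 0.0507 and 0.0562), with a log2 fold change of -0.66 to -0.69. The difference between the genotype effects at the 2 times was -0.70 (SE 0.180, adjusted p = 0.0791).

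Kupffer cells, the resident macrophages of the liver, express much ferroportin. The summed level of 8 Kupffer markers was 1190 to 1320 CPM in wild-type and 583 to 740 in PPARγ-KO at 5 months, and 430 to 553 against 477 to 548 at 2 months. Of these 8 markers 7 were called lower at 5 months, when 18.4% of all genes were called in either direction. Among them were Clec4f (log2 -0.79, edgeR adjusted p = 1.40e-04) and Cd5l (log2 -1.19, adjusted p = 3.25e-06). No marker of the 8 was at 0 in every library of a group. Within PPARγ-KO the mean Kupffer sum was 636 CPM at 5 and 520 at 2 months, and the mean of Slc40a1 133 and 186 CPM. The 8 markers were split there over time: 4 were higher and 4 lower, with 2 called each way and a median log2 fold change of -0.03. Over all genes 44.9% were called in this comparison, so these calls are near the background. Within wild-type all 8 were higher at 5 months and 7 were called, against 46.4% of all genes. The mean sum there was 1280 against 482 CPM, and the mean of Slc40a1 215 against 186 CPM. The part of Kupffer cells in the fall of Slc40a1 was not tested, and in bulk liver fewer cells of a type and less RNA per cell cannot be told apart. The summed 8 hepatocyte markers, most of the sum being albumin (Alb), were higher in PPARγ-KO at both times, at 75000 to 89000 CPM against 57300 to 71900 at 2 months and 74000 to 85600 against 56000 to 59500 at 5 months. None of the 8 was called at 2 months, when 3.56% of all genes were. At 5 months Alb and Tat were called higher, and 2 of 8 is near the 18.4% of all genes. The mean of Cyp2e1 was lower at both times and that of Apoa1 lower at 5 months. The part of hepatocytes in the values of the hepcidin genes, which they express, was not tested either.

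**Figure D2:**
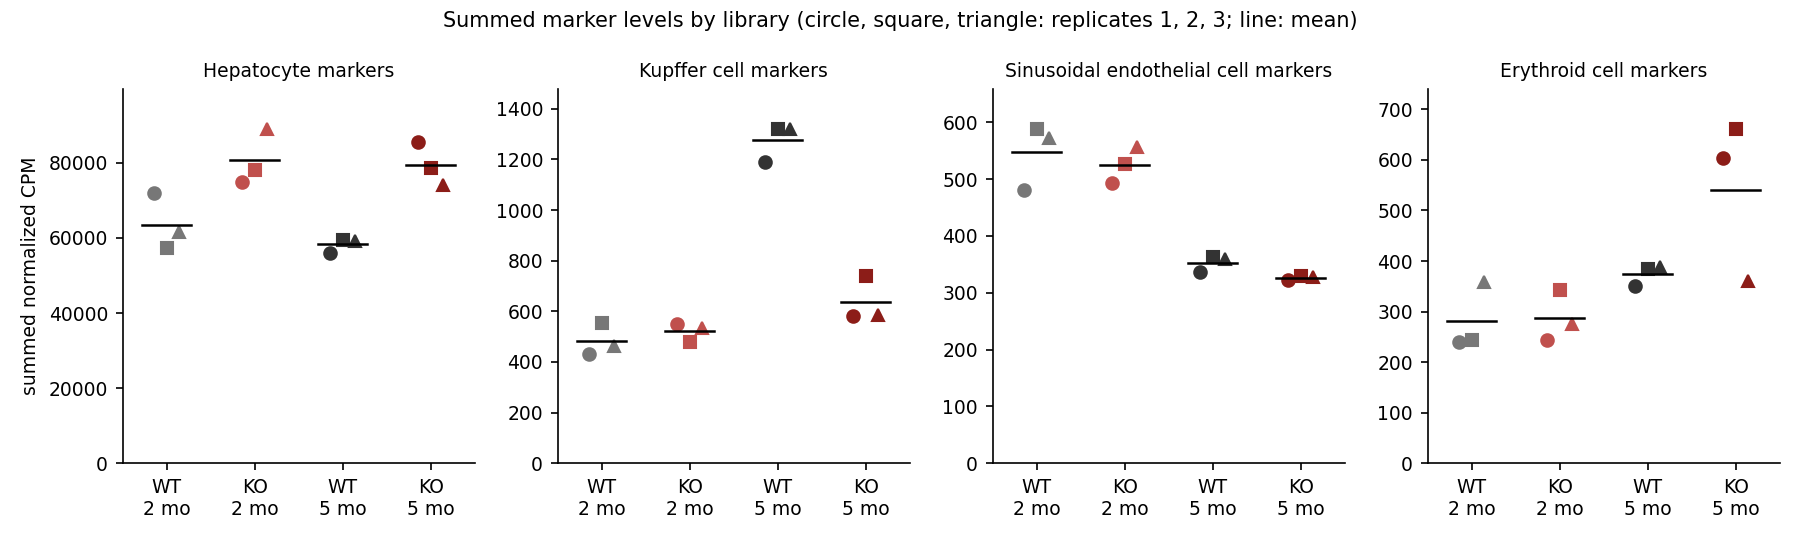
Summed normalized CPM of the markers of 4 cell types in the 12 libraries (axes from 0), by genotype label and months of FFD; symbols are replicates and lines are group means. Kupffer cell sums at 5 months lie at 1190 to 1320 in wild-type and 583 to 740 in PPARγ-KO, and sinusoidal endothelial sums at 336 to 363 and 322 to 329.

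Trf, which encodes plasma transferrin, was not called between genotypes at either time. At 2 months wild-type had 787, 763 and 813 normalized CPM and PPARγ-KO 890, 914 and 903, and at 5 months wild-type had 797, 823 and 789 and PPARγ-KO 674, 753 and 703. The groups were apart at both times, above wild-type at 2 months and below it at 5 months. Neither difference passed (log2 0.20, edgeR adjusted p = 0.209, and log2 -0.17, adjusted p = 0.128), and neither did the difference between them (-0.37, SE 0.0973, adjusted p = 0.0692). Tfr2, the hepatocyte receptor that senses transferrin iron, ranged from 318 to 412 CPM over the 12 libraries, with log2 fold changes of 0.19 at 2 months (adjusted p = 0.320) and 0.07 at 5 months (unadjusted 95% interval -0.06 to 0.21, adjusted p = 0.486).

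The ferritin genes were not called between genotypes. Fth1, the heavy subunit that oxidises iron for storage, had log2 fold changes of -0.04 at 2 months (edgeR adjusted p = 0.887) and 0.19 at 5 months (adjusted p = 0.128). Ftl1, the light subunit, had 0.05 (adjusted p = 0.874) and 0.02 (unadjusted 95% interval -0.23 to 0.28, adjusted p = 0.912). Its direction turned at both times when library size alone was used for scaling (-0.03 and -0.04).

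Bmp6 and Id1 were not called between genotypes. Bmp6, the endothelial ligand, had 6.49, 7.10 and 6.09 normalized CPM in wild-type and 6.83, 7.75 and 8.97 in PPARγ-KO at 2 months. By 5 months wild-type stood at 5.39, 4.84 and 4.75 CPM and PPARγ-KO at 5.66, 6.61 and 4.67. The libraries overlapped at both times, with log2 fold changes of 0.26 (edgeR adjusted p = 0.413) and 0.19 (adjusted p = 0.490). Id1, a transcriptional inhibitor that BMP signals switch on, had 8.24, 6.79 and 3.86 CPM in wild-type and 3.78, 3.53 and 3.76 in PPARγ-KO at 2 months. The groups were barely apart and the difference did not pass (log2 -0.77, SE 0.259, adjusted p = 0.145). At 5 months Id1 ran from 2.96 to 7.11 CPM in wild-type and from 2.83 to 5.80 in PPARγ-KO (log2 -0.29, adjusted p = 0.666).

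**Figure D3:**
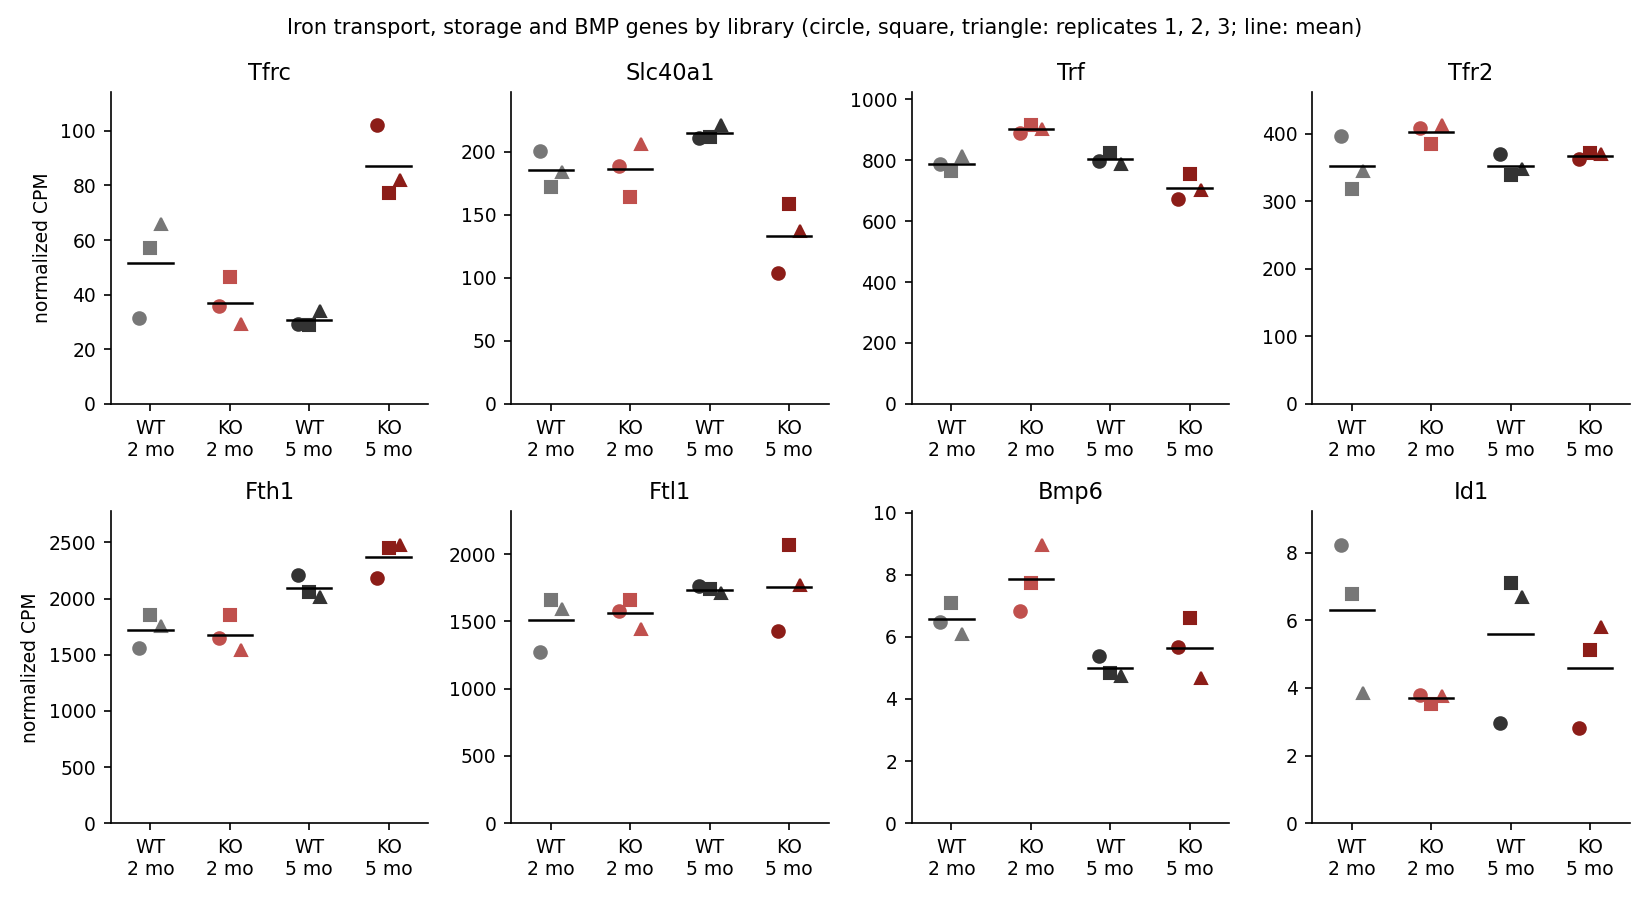
Normalized CPM (axes from 0) of Tfrc, Slc40a1, Trf, Tfr2, Fth1, Ftl1, Bmp6 and Id1 in the 12 libraries, by genotype label and months of FFD; symbols are replicates and lines are group means. Tfrc in PPARγ-KO at 5 months lies at 77.4 to 102 and Slc40a1 at 104 to 159, apart from wild-type at 28.8 to 33.9 and 211 to 221.

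Counted over the 10 genes, genotype calls were few. At 2 months 1 gene, Hamp2, was called, against 3.56% of the 14573 genes tested. The libraries of the genotypes did not overlap for 3 of the 10 (Hamp2, Trf and Id1), against 24.1% of all genes. At 5 months 2 genes were called, Tfrc higher and Slc40a1 lower, against 18.4% of 14138 genes, and 4 did not overlap (Hamp, Tfrc, Trf and Slc40a1), against 34.9%. The counts at 5 months were thus near the background. The median log2 fold change of the 10 was 0.03 at 2 months and 0.05 at 5 months, beside -0.0048 and -0.0058 over all genes. At an unadjusted p under 0.05 with a change of at least 1.3-fold, the kind of rule the study used, 2 of the 10 passed at 2 months (11% of all genes) and 3 at 5 months (17%), which added Id1 and Hamp. In the test of the difference between the times 1 gene, Tfrc, was called, against 1.57% of 15127 genes, and 3 by the unadjusted rule, against 10.3%. This difference was estimated with the largest error for Hamp (log2 -2.64, SE 1.03, adjusted p = 0.282), followed by Hamp2 (-0.12, SE 0.935, adjusted p = 0.970). For Id1 (0.47), Fth1 (0.22), Tfr2 (-0.13), Bmp6 (-0.08) and Ftl1 (-0.03) the adjusted p ran from 0.460 to 0.957.

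**Figure D4:**
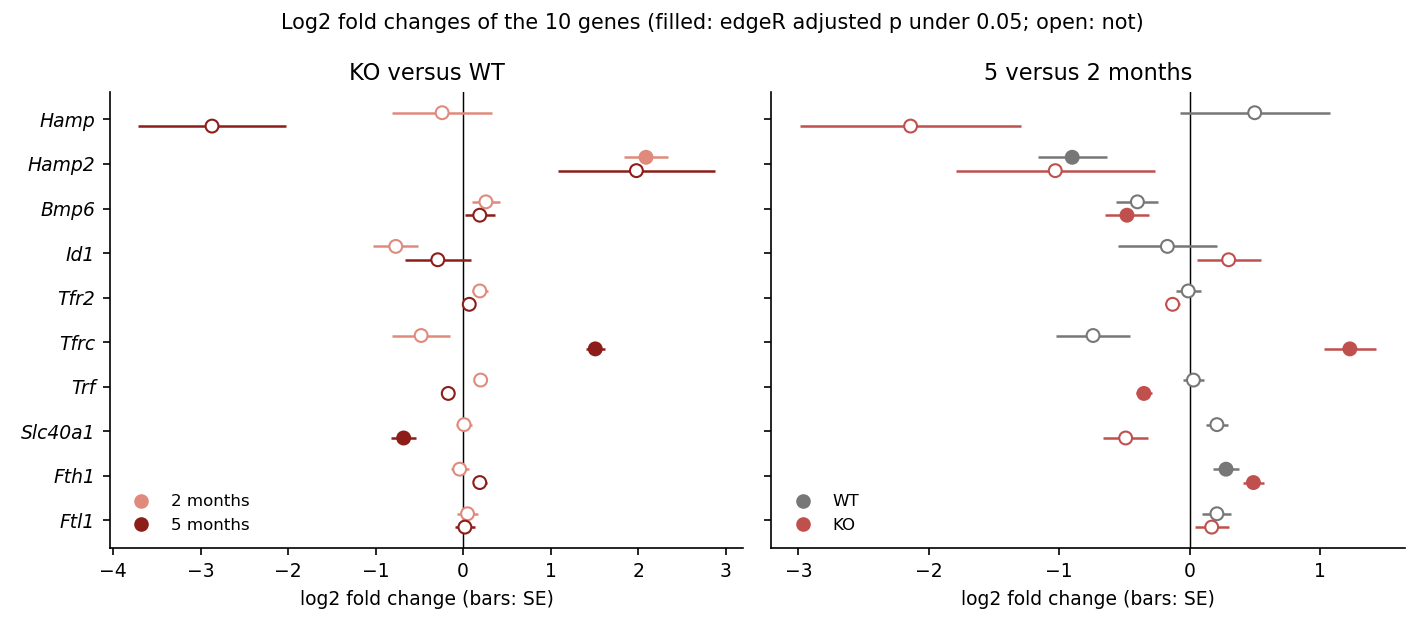
Log2 fold changes of the 10 genes with their standard errors, for PPARγ-KO against wild-type at each time (left) and for 5 against 2 months in each genotype (right); filled points have an edgeR adjusted p under 0.05. Hamp at 5 months has the largest change between genotypes (-2.87) with a wide error (0.841) and an open point, and Tfrc the narrow, filled 1.51.

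Time on the diet was then compared within each genotype. These comparisons share their libraries with those between genotypes and are not independent of them. In wild-type 2 of the 10 genes were called between 2 and 5 months, against 46.4% of 14491 genes, 5 did not overlap, against 56.8%, and 3 passed the unadjusted rule, against 41.1%. Hamp2 fell by 0.90 on the log2 scale by 5 months (edgeR adjusted p = 0.0168, SE 0.265), and was not called in the fit of all 12 libraries (adjusted p = 0.332) or without replicate 3 at 5 months (adjusted p = 0.0507). Fth1 was higher, at 2210, 2060 and 2010 CPM against 1560, 1850 and 1760 (log2 0.28, SE 0.0991, adjusted p = 0.0398), a call that was lost without replicate 3 at 2 months and without any 1 replicate at 5 months (adjusted p = 0.0791 to 0.0974), with library size alone (0.132) and with at least 10 counts required in every library (0.0517). Hamp in wild-type was higher at 5 months by 0.50 (SE 0.575), within its spread (adjusted p = 0.530). Tfrc (-0.74, adjusted p = 0.0830), Bmp6 (-0.40, adjusted p = 0.0647), Slc40a1 (0.21, adjusted p = 0.0551) and Ftl1 (0.21, adjusted p = 0.153) did not pass either. The log2 differences of Tfr2, Trf and Id1 were -0.01, 0.03 and -0.17 (adjusted p = 0.967, 0.809 and 0.749).

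In the libraries labelled PPARγ-KO 4 of the 10 were called between the times, against 44.9% of 14478 genes, 7 did not overlap, against 55.6%, and 4 passed the unadjusted rule, against 36%. Tfrc rose 2.35-fold (log2 1.23, SE 0.200, edgeR adjusted p = 0.00444). Fth1 rose from 1650, 1850 and 1540 to 2180, 2450 and 2480 CPM (log2 0.49, SE 0.0820, adjusted p = 5.88e-04). Trf fell by 0.35 on the log2 scale (adjusted p = 9.84e-04) and Bmp6 by 0.48 (SE 0.168, adjusted p = 0.0376), the latter lost without replicate 2 or 3 at 2 months or 1 or 3 at 5 months (adjusted p = 0.0649 to 0.138), in DESeq2 (adjusted p = 0.0515) and with the replicate number as a block (adjusted p = 0.0651). The summed sinusoidal endothelial markers, from the cells that make Bmp6, were 493 to 556 CPM at 2 months and 322 to 329 at 5 months. In wild-type these sums were also lower at 5 months, at 336 to 363 CPM against 480 to 588. The part of these cells in the values of Bmp6 was not tested. Hamp was 4.42-fold lower at 5 months with no overlap but did not pass (log2 -2.14, SE 0.850, adjusted p = 0.114), and it passed without replicate 1 at 5 months (log2 -1.62, adjusted p = 0.0148) but not without replicate 2 (log2 -2.82, adjusted p = 0.120). Slc40a1 was lower with no overlap (log2 -0.49, SE 0.174, adjusted p = 0.0688), and so was Tfr2 (log2 -0.13, adjusted p = 0.0776), without passing. The log2 differences of the rest were -1.03 for Hamp2 (adjusted p = 0.342), 0.17 for Ftl1 (adjusted p = 0.324) and 0.30 for Id1 (adjusted p = 0.350).

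Around these 10 genes, 9 lists of other iron and hepcidin genes held 73 genes, of which 72 were tested between the genotypes. At 2 months 4 of them were called, 2 higher and 2 lower (5.56%, against 3.56% of all genes), and at 5 months 22, 8 higher and 14 lower (30.6%, against 18.4%). Of the 13 genes that sense iron through BMP receptors and HFE none was called at 2 months, and 2 were at 5 months: Hfe2, the gene of the BMP co-receptor hemojuvelin, rose (log2 0.26, edgeR adjusted p = 0.0127) and Fkbp1a, which holds BMP type I receptors inactive, fell (log2 -0.45, adjusted p = 4.80e-04). Among the 6 further BMP-SMAD targets Id3 fell at both times (log2 -0.69, adjusted p = 0.0491, and log2 -0.59, adjusted p = 0.0201), and Atoh8, a transcription factor that BMP signals induce in hepatocytes, fell at 5 months (log2 -0.74, adjusted p = 7.98e-04). The median of these targets at 5 months was -0.45, beside -0.0058 over all genes. The list was split at that time: 4 of the 6 were not called. Smad7 (log2 0.20) and Bambi (log2 0.02) had higher means in PPARγ-KO.

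The interleukin 6 and STAT3 route had 12 genes, none called at 2 months, when 3.56% of all genes were. At 5 months Il6ra, the interleukin 6 receptor, rose 2.53-fold (26.1 ± 3.25 to 65.3 ± 3.59 CPM, SD, n = 3, edgeR adjusted p = 1.08e-06), while Il6st, its signalling partner gp130, fell (log2 -0.31, adjusted p = 0.00464). The acute-phase genes Saa1 (log2 -1.57, adjusted p = 0.0125) and Saa2 (log2 -0.99, adjusted p = 0.0400), which STAT3 drives in hepatocytes, fell, and the fibrinogen genes were not called. Of the 12 genes 1 was thus called higher and 3 lower at 5 months, when 18.4% of all genes were called. Of 5 factors that act at the Hamp promoter 1 was called, at 5 months, which is near that share. It was Hnf4a, which was higher (514 ± 29.8 to 618 ± 24.2 CPM, log2 0.28, adjusted p = 0.0151).

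Among 11 genes of iron uptake, reduction and transport Slc39a14, which takes up iron that is not bound to transferrin, rose at both times (log2 0.46, edgeR adjusted p = 0.0148, and log2 0.51, adjusted p = 1.17e-04). Slc11a2, the divalent metal transporter DMT1, rose at 5 months (log2 0.27, adjusted p = 0.0375). The ferrireductase genes Steap3 (log2 -0.43, adjusted p = 0.00569) and Steap4 (log2 -0.45, adjusted p = 3.62e-04) fell at 5 months. None of the 4 storage and chaperone genes tested was called at either time. Of 5 genes of the iron regulatory protein system 1 was called, Epas1, the oxygen-sensing factor HIF-2α, higher at 5 months (log2 0.33, adjusted p = 0.00377). Over all genes 3.56% were called at 2 months and 18.4% at 5 months, so 1 of 5 is near the background. The genes of the iron regulatory proteins themselves, Aco1 and Ireb2, were not called between genotypes.

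Of 8 genes of heme synthesis none was called at 2 months, when 3.56% of all genes were. At 5 months, when 18.4% of all genes were called, Cpox (log2 0.43, edgeR adjusted p = 0.00208) and Ppox (log2 0.45, adjusted p = 0.00992) rose and Alad fell (log2 -0.28, adjusted p = 0.0113). Of 8 genes that clear heme and hemoglobin 5 fell at 5 months and none rose. They were Hpx, the plasma carrier of heme (9220 ± 877 to 5330 ± 566 CPM, adjusted p = 2.36e-04), Hp, the carrier of hemoglobin (6560 ± 584 to 4220 ± 134 CPM, adjusted p = 3.88e-04), the macrophage hemoglobin receptor Cd163 (log2 -0.70, adjusted p = 0.0446), the biliverdin reductase gene Blvra (log2 -0.43, adjusted p = 0.0115) and the heme exporter Flvcr1 (log2 -0.64, adjusted p = 0.0293). At 2 months Hp was lower as well (log2 -0.41, adjusted p = 0.0469), but Cd163 was higher (log2 0.96, adjusted p = 0.00549). Cd163 is made by Kupffer cells, whose summed markers at both times are given above. At 2 months 7 of the 8 Kupffer markers had higher and 1 a lower mean in PPARγ-KO. Of them 1 was called, Timd4 (log2 0.87, edgeR adjusted p = 0.0154), when 3.56% of all genes were. The part of Kupffer cells in the values of Cd163 was not tested.

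The genes most like Hamp and Tfrc were read by Pearson's r of log2 CPM over the 12 libraries, among 13170 genes with a mean of at least 1 CPM. Slc40a1 stood first for Hamp (r = 0.939), followed by Gm6565 (0.881), the sterol transporter gene Abcg5 (0.878), C630043F03Rik (0.874) and Abcg8 (0.865), the partner of Abcg5. For Tfrc the genes named are Dusp1, a MAP kinase phosphatase (r = 0.953), Chd1l (0.905), Tacc2 (0.881) and Dglucy (0.856). The 12 points fall into 4 groups, so these values describe the groups as much as the single libraries.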

How the data were processed

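Total liver RNA was extracted with TRIzol by the authors and sequenced by Novogene. The authors deposited raw counts of reads per gene for each library, 54532 genes with whole numbers and no normalization. The paper names STAR as the aligner and the submitters' processing notes name HISAT2, both with mm10. The counting program, the annotation and the use of strand are not given in the sources used here. Groups came from the sample labels. Each comparison was fitted on its own 6 libraries with edgeR 4.0.16 in R 4.3.3: filterByExpr, TMM scaling, robust quasi-likelihood dispersions and a two-sided F-test, with Benjamini-Hochberg adjustment over all genes tested and a threshold of 0.05. A called gene is one that passed. The difference between times used all 12 libraries. Normalized CPM used TMM library sizes, and errors of log2 fold changes are standard errors of the fit. The spread between libraries and depth limit low genes such as Id1 and Bmp6, with 50 to 241 counts per library. DESeq2 1.42.0, the replicate number as a block, and other filters, scalings and sample sets were run as alternatives.

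The 10 genes and the lists were chosen with earlier results of these data known. All 10 are given in each comparison. From the other pathway lists the called genes are named, up to 6 per list by adjusted p, and for Hamp and Tfrc those among the 5 genes most like each. Some items are not reported here. At 2 months, same-numbered libraries of the 2 genotypes deviated together (correlations 0.220, 0.324 and 0.140 over 5000 genes), and at 5 months they did not (-0.0779, -0.0603 and -0.179). Differently numbered pairs at 2 months gave -0.274 to 0.114. Between the times, same-numbered wild-type libraries gave 0.238, 0.185 and 0.0191. Wild-type replicate 3 at 5 months and replicate 2 at 2 months gave 0.266. These values do not settle whether the numbers pair the libraries. The labels give only the number. Transcripts came from GENCODE M21 (GRCm38), the same assembly as mm10.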

Additional observations from a re-analysis of the deposited data

Results flagged for a closer look

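The genotype difference in Tfrc depended on the time on the diet by the test of that difference: it was 1.98 higher on the log2 scale at 5 than at 2 months (edgeR interaction over 12 libraries, SE 0.385, adjusted p = 0.0453). At 2 months the PPARγ-KO libraries overlapped wild-type, and at 5 months 3 of 3 lay above every wild-type library. The difference stayed between 1.77 and 2.24 on the log2 scale in the 20 alternatives run, but was called in 8 of them. It was not called with library size alone for scaling or with the replicate number as a block (adjusted p = 0.122). Within each time the erythroid marker sums were 239 to 358 CPM in wild-type and 243 to 343 in PPARγ-KO at 2 months, and 350 to 389 against 360 to 661 at 5 months. With 3 libraries per group no test for outlying samples was run, and fits without single libraries are among these alternatives.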

How the results depend on the processing

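The number of the 10 genes called at 2 months was 1, and it became 2 with no filter, 2 at an unadjusted p under 0.05 with a 1.3-fold change, 0 with all 12 libraries in one fit and 0 with Hamp and Hamp2 summed. Leaving out single libraries gave 0 to 2. At 5 months it was 2, and 1 to 4 with single libraries left out, the 4 without PPARγ-KO replicate 1. Between times in wild-type it was 2, and became 4 with no filter, 1 with at least 10 counts in every library, 1 with the hepcidin genes summed and 0 to 4 with single libraries left out. In PPARγ-KO it was 4, and 3 to 7 with single libraries left out. For the difference between the times it was 1, and became 3 with DESeq2, 0 with library size alone, 3 with no filter, 3 at the unadjusted threshold and 0 to 2 with single libraries left out. The Hamp2 share kept its direction in every fit with a library left out (7.95 to 12.6 and 24.7 to 29.1 percentage points between genotypes at 2 and 5 months, -3.97 to -1.43 and 11.5 to 16.2 between times).

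With the replicate number as a block the calls were 1 at 2 months, where numbers may pair the libraries, and 3 at 5 months, 4 in wild-type over time, 3 in PPARγ-KO and 1 for the difference. At 5 months the block added Hamp2 (log2 1.79, adjusted p = 0.0207), and in the difference it lost Tfrc (adjusted p = 0.122) and gained Slc40a1 (adjusted p = 0.0303).

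Directions of small changes turned. With library size alone Slc40a1 at 2 months was -0.07, Ftl1 -0.03 at 2 months and -0.04 at 5 months, and Trf over time in wild-type -0.05, and with no filter Tfr2 over time in wild-type was 0.01. With single libraries left out, the ranges that crossed 0 were -0.61 to 0.44 for Hamp, -0.07 to 0.09 for Slc40a1, -0.11 to 0.02 for Fth1 and -0.06 to 0.12 for Ftl1 at 2 months, and -0.11 to 0.16 for Ftl1 at 5 months. Over time in wild-type they were -0.08 to 0.09 for Tfr2 and -0.43 to 0.14 for Id1, and for the difference between the times -0.88 to 0.37 for Hamp2, -0.17 to 0.1 for Ftl1 and -0.21 to 0.03 for Bmp6. The causes were not tested.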
